A study of Mus musculus with 4 samples.

Results

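The interleukins are secreted proteins that carry signals between blood, immune and stromal cells, and their genes and those of their receptor chains were followed in mouse bone marrow cultured toward osteoclasts, large cells with several nuclei that break down bone. Members were the genes whose platform symbol is Il followed by a digit, read from probe sets with a single gene symbol, without Il34, Il3ra and Il5ra. This gave 70 genes on 112 probe sets, of 18193 named genes on an array of 45101 probe sets. The rule goes by name, so it also takes Il4i1, which encodes an amino acid oxidase, Il16, which is unrelated in sequence to the other families, and Il1bos, an RNA from the strand opposite Il1b.

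The donors of the marrow were C57Bl/6J females, 12 weeks old, and each of 4 times had 1 array. The day 1 sample was marrow on the day of extraction, and the day 4 sample had been cultured for 3 days with vitamin D3 at 10 nM in 10% serum. The samples of days 5 and 7 were kept in the same medium with vitamin D3 at 10 nM and were also given M-CSF (20 ng/ml) and RANKL (40 ng/ml), the growth factor and the cytokine that drive osteoclast formation; their labels give 4 and 6 days of differentiation. Both cytokines were in every culture of days 5 and 7, so their effect and that of time in culture cannot be told apart. The labels call all 4 samples primary osteoclasts. Of 15 listed osteoclast genes, 11 were above the floor on every array, day 1 included. The others, Calcr, Dcstamp, Ocstamp and Oscar, were under it on day 1, and Calcr was also under it on day 4. Whether the cultures were separate, and how many mice were used, is not in the labels.

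Interleukin families share receptor chains. Receptors of the IL-1 family signal through the adaptor MyD88, and those of the common gamma chain group through the kinases Jak1 and Jak3. The IL-6 receptor signals through the chain gp130, the product of Il6st. In bone, IL-1 and IL-6 are known to favour osteoclast formation, and IL-4, IL-10, IL-12 and IL-18 are known to restrain it. IL-7 comes from marrow stroma and supports B cell precursors.

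The measurement is a probe set's linear intensity, called the signal here. Before log2 differences were taken, any signal below 32.4 was raised to that value, the floor, which is the median over probe sets other than controls. Differences of 2-fold or more were called higher or lower, a threshold of size only, because with 1 array per day there is no test. A gene under the floor on 1 of the 2 arrays compared has a bound, written as at least N-fold, and a gene under it on both has no difference. Levels of different genes were not compared, since probe sets differ in sensitivity. The technical spread, read from 18 probe sets for spiked controls, had an SD between 0.07 and 0.17 on the log2 scale over the 5 comparisons, and probe sets sharing a gene had a pooled SD between 0.26 and 0.53. The percentage of probe sets above the floor was 52.6, 50.9, 49.9 and 46.6 on days 1, 4, 5 and 7. In such bulk samples, fewer cells of a type and less RNA per cell cannot be told apart.

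Of the 70 genes, 28 were under the floor on every array, 42 were above it on at least 1 array and 24 on all 4. The numbers above the floor on days 1, 4, 5 and 7 were 31, 35, 36 and 27. Full values are given for the 31 genes that reached 2 times the floor on some array. Among these, day 1 had the highest signal for 14 genes, day 4 for 9, day 5 for 8 and day 7 for 0. With the floor applied, day 7 alone had the lowest signal for 17 of the 31, and 3 more, Il12a, Il17rb and Il18r1, were under the floor on day 7 and on at least 1 other day. A lower signal at every step was seen for 7 genes: Il10ra, Il17ra, Il18rap, Il1b, Il1f9, Il1r2 and Il6ra. Of the 31, 24 reached 2-fold in some comparison and 7 did not on the probe set used: Il10rb, Il13ra1, Il17re, Il18, Il1f10, Il1rap and Il21r. These counts over the 31 genes have no count over all genes beside them. Day 7 was also the array with the lowest percentage of probe sets above the floor, 46.6.

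**Figure D1:**
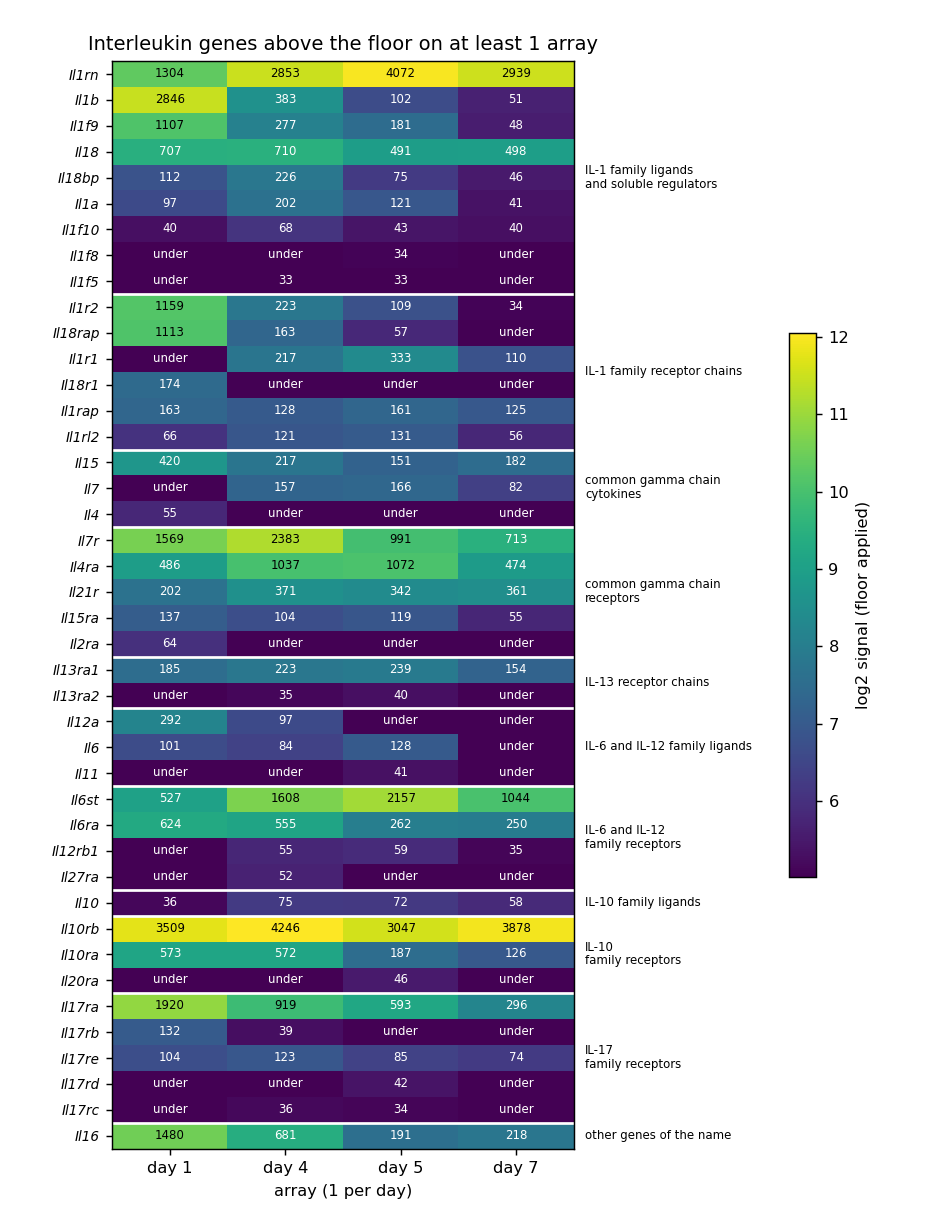
Each cell gives the signal of an interleukin gene (row) on the array of a day (column), coloured by log2 signal with the floor of 32.4 applied; "under" marks signals under the floor, and white lines separate the families named at the right. The 42 genes above the floor on at least 1 array are shown. Il1b, Il1f9, Il1r2, Il18rap, Il17ra and Il16 are brightest on day 1, and Il1rn, Il6st and Il1r1 on day 5.

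On day 4 against day 1, 8 of the 70 genes were at least 2-fold higher (Il1r1, Il7, Il6st, Il1rn, Il4ra, Il10, Il1a and Il18bp) and 9 were at least 2-fold lower (Il1b, Il18rap, Il18r1, Il1r2, Il1f9, Il17rb, Il12a, Il16 and Il17ra). These are 11.4% and 12.9% of the members, where 6.61% of all named genes were higher and 5.69% lower. On day 5 against day 4, 0 members were higher and 9 were lower (Il1b, Il16, Il10ra, Il18bp, Il12a, Il18rap, Il7r, Il6ra and Il1r2). The share of members that were lower was 12.9%, against 2.62% of all genes, and 1.31% of all genes were higher. On day 7 against day 5, 0 were higher and 11 were lower (Il6, Il1f9, Il1r2, Il1r1, Il1a, Il1rl2, Il4ra, Il15ra, Il6st, Il7 and Il17ra), which is 15.7% of members against 3.73% of all genes. Of all genes 0.544% were higher at that step. The count of 11 was 6 after quantile normalization and 7 after median scaling, neither of which called Il15ra, Il17ra, Il6st or Il7.

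From before to after M-CSF and RANKL, on day 7 against day 4, 15 of the 70 genes were lower and 0 were higher. The share lower was 21.4%, where 5.89% of all genes were lower and 2.02% higher. On day 7 against day 1, 17 genes (24.3%) were lower and 3 were higher, Il1r1, Il7 and Il1rn. Of all genes 10.7% were lower and 8.33% higher. Quantile normalization turned this split into 13 lower and 6 higher, adding Il10, Il21r and Il6st to the higher side. The median log2 difference of the 42 members above the floor on at least 1 array was 0.002 (day 4 over day 1), -0.06 (day 5 over 4), -0.36 (day 7 over 5), -0.67 (day 7 over 4) and -0.44 (day 7 over 1). The same median over the 12438 genes that passed this filter was 0.03, 0.03, -0.09, -0.05 and 0 in that order. The comparisons share arrays, so their counts are not independent of each other.

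**Figure D2:**
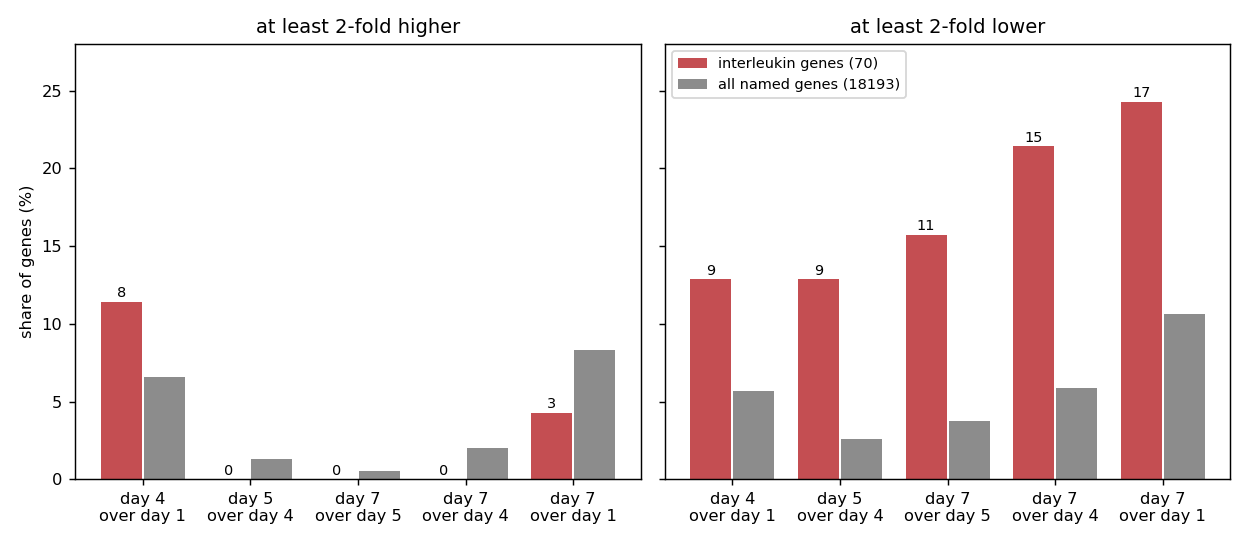
Bars give the percentage of genes at least 2-fold higher (left) or lower (right) in each comparison, red for the 70 interleukin genes and grey for all 18193 named genes; the numbers over the red bars count members. On the lower side the red bar stands above the grey one in all 5 comparisons, and on the higher side only on day 4 over day 1.

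Other probe sets of the called members were also read. Those under the floor on either array were not counted, among them the other probe sets of Il1r1 and Il7. Members that were not called, such as Il10rb and Il13ra1, are not in this count. Where such a probe set was above the floor on both arrays, it had the direction of the one used in 8 of 8 cases for day 4 over 1, 4 of 4 for day 5 over 4, 5 of 5 for day 7 over 5, 5 of 5 for day 7 over 4 and 7 of 7 for day 7 over 1. It also reached 2-fold in 6, 2, 3, 4 and 5 of these cases, in the same order. For 43 of the 70 genes there was a single probe set.

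The promoters of members were read from the RefSeq table of the GRCm38.p6 build, which gives 250 bases before and 50 after a transcript start and held 68 promoters of 55 of the 70 genes. Letters of 3 motifs were searched on both strands. The NF-kappaB letters, GGG, any 2 bases and then TTTCC, were in 6 of the 55 genes (10.9%), where 1.89% of all 27025 genes in the table held them. The AP-1 letters TGANTCA were in 13 of the 55 (23.6%), against 8.97% of all genes, and the STAT letters TTCNNNGAA in 10 (18.2%), against 9.55%. A match describes these windows only. The genes with NF-kappaB letters were Il1rn, Il4ra, Il6, Il16, Il17rc and Il9. They did not all share a time course: Il9 was under the floor throughout, Il1rn, Il4ra and Il6 were highest on day 5, and Il16 was highest on day 1. Il17rc was above the floor on days 4 and 5 only. These windows are given 5′ to 3′ on the strand of the gene, with motif letters in capitals, for Il1rn (chr2:24345121-24345420, plus strand), Il4ra (chr7:125552021-125552320, plus strand) and Il6 (chr5:30012864-30013163, plus strand), each with the NF-kappaB letters. That of Il1b (chr2:129371090-129371389, minus strand) is set beside them because Il1b was lower, and its antagonist Il1rn higher, on day 4 than on day 1. Whether the letters bear on these directions was not tested. Il6 also has AP-1 letters near its 5′ end, the match in Il4ra lies after the start and is read from the other strand, and in Il1b none of the 3 sets of letters is in the window. The Il1rn window is 1 of 3 that the table holds for this gene, and no match overlaps another in the windows printed.
Il1rn: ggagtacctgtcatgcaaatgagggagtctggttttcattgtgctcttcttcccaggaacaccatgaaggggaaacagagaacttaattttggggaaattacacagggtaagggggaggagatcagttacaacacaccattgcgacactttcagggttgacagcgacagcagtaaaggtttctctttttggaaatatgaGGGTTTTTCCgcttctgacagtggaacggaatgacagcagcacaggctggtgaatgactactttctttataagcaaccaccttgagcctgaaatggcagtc
Il4ra: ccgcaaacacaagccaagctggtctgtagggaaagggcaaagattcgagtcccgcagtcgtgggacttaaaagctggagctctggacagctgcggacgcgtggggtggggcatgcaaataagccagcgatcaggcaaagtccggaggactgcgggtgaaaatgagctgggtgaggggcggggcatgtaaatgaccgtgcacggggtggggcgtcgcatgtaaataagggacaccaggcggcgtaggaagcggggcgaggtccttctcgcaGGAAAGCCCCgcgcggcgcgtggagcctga
Il6: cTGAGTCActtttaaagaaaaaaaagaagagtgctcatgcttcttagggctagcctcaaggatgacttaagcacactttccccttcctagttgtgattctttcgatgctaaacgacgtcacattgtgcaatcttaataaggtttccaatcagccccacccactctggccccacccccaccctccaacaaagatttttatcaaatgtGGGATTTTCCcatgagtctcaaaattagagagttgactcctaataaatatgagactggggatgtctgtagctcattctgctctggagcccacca
Il1b: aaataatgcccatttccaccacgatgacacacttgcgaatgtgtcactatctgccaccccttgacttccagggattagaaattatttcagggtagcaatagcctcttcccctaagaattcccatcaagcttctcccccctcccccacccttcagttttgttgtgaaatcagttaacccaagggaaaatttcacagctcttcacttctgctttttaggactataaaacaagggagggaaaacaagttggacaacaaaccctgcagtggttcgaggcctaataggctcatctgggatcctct

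Within the IL-1 family, the agonist genes Il1b, Il1a and Il1f9 were lower and the antagonist gene Il1rn was higher on day 7 than on day 1. Il1b, which encodes the secreted agonist IL-1 beta, had signals of 2846, 383, 102 and 51.0 on days 1, 4, 5 and 7. It was lower at every step, by 7.44-fold (day 4 over 1), 3.76-fold (day 5 over 4) and 1.99-fold (day 7 over 5). From end to end it was 55.8-fold lower on day 7 than on day 1, and 36 of the 18193 genes, Il1b among them, had a difference as low or lower. Il1rn encodes the receptor antagonist, which occupies the IL-1 receptor without signalling. Its signals were 1304, 2853, 4072 and 2939, highest on day 5, and it was 2.19-fold higher on day 4 than on day 1 and 2.25-fold higher on day 7 than on day 1. Both other probe sets of Il1rn were higher on day 7 than on day 1, with log2 differences of 1.59 and 1.35. On day 5 over day 4 the probe sets of Il1rn differed in size: the log2 difference was 0.51 for the one used, and 1.09 and 0.57 for the others.

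Il1a, the gene of the cell-associated agonist IL-1 alpha, followed another course, with signals of 96.6, 202, 121 and 41.4. It was highest on day 4, 2.09-fold above day 1, and lowest on day 7, 4.87-fold below day 4. The difference between days 4 and 1 was close to the threshold, at 0.95 on the log2 scale when 16 was added to every signal in place of the floor. That between days 7 and 1, a log2 difference of -1.22, was -0.67 after quantile normalization. Il1f9, named Il36g in later annotations, encodes an agonist of the IL-36 receptor. It had signals of 1107, 277, 181 and 48.3 and was lower at every step, and day 7 was 22.9-fold below day 1. Its receptor gene Il1rl2 had 66.0, 121, 131 and 55.5, with the lowest value again on day 7, 2.36-fold below day 5. That course rests on a probe set built to match several transcripts, and the other probe set of Il1rl2 was under the floor on every array.

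Il18, which encodes an IL-1 family cytokine that acts on lymphocytes, had signals of 707, 710, 491 and 498, within 1.45-fold at each step. Il18bp, the gene of the soluble protein that binds and neutralises IL-18, had 112, 226, 74.8 and 46.2. It was 2.01-fold higher on day 4 than on day 1 and 3.02-fold lower on day 5 than on day 4, while Il18 on day 4 was 1.00-fold its day 1 signal. The first of these calls was lost under median scaling (0.99 on the log2 scale). Il1f10 had 39.8, 68.1, 42.9 and 39.9 and reached 2-fold in 0 of the 5 comparisons. Il1f5 and Il1f8 were never above 34.2, and Il1f6 and Il33 were under the floor on every array.

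The receptor chains of the family moved in opposite directions. Il1r2 encodes a decoy that binds IL-1 and has no signalling domain, and its signals were 1159, 223, 109 and 33.8. It was 5.20-fold lower on day 4, and 34.3-fold lower on day 7, than on day 1, and lay just above the floor on day 7. Il1r1, which encodes the signalling receptor, was under the floor on day 1 and had 217, 333 and 110 on days 4, 5 and 7. The bound was at least 6.68-fold higher on day 4, and at least 3.39-fold higher on day 7, than on day 1. Between days 7 and 5 it was 3.02-fold lower on day 7. The other probe set of Il1r1 was under the floor on every array, and with a floor of 68.9 the log2 difference on day 7 over day 1 was 0.68 in place of 1.76. The gene of the shared accessory chain, Il1rap, had 163, 128, 161 and 125 and was within 1.30-fold in every comparison.

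Both chains of the IL-18 receptor were highest in fresh marrow. Il18rap, the accessory chain gene, had signals of 1113, 163 and 57.2 on days 1, 4 and 5 and was under the floor on day 7, at least 34.3-fold below day 1. Its other probe set had a log2 difference of -2.53 on day 4 over day 1 but -0.08 on day 5 over day 4, where the one used gave -1.51 and the mean over probe sets -0.80. Il18r1, the gene of the binding chain, had 174 on day 1 and was under the floor on days 4, 5 and 7, so that day 4 was at least 5.35-fold below day 1. Il1rapl1 and Il1rapl2, receptor-like genes known from neurons, were under the floor on every array.

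**Figure D3:**
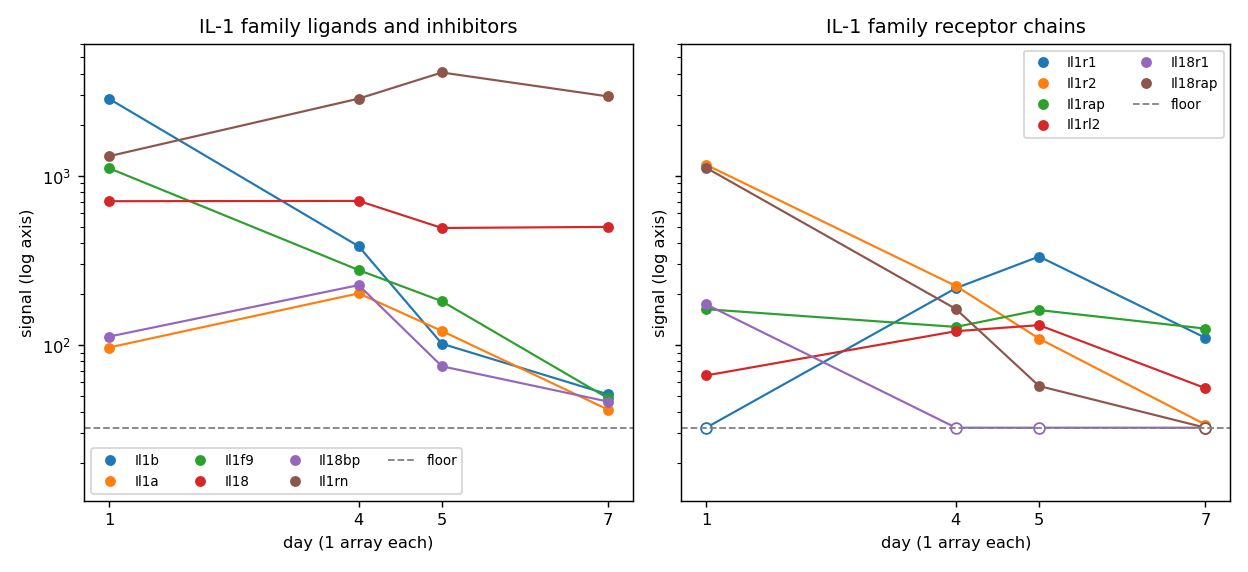
Points give the signal (log axis) of IL-1 family genes on each of the 4 arrays against the day; open points at the dashed line are signals under the floor of 32.4, and lines join the days. Il1b, Il1f9, Il1r2 and Il18rap descend from signals of 1107 or more on day 1, while Il1rn stays at 1304 or more and Il1r1 is above the floor from day 4 on.

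Neighbouring genes differed in course. In the RefSeq annotation Il1r2, Il1r1, Il1rl2, Il18r1 and Il18rap lie in a run of 6 coding genes, of which 5 were analysed here. On day 7 against day 1, Il1r2, Il18r1 and Il18rap were lower, Il1r1 was higher and Il1rl2 had a log2 difference of -0.25. A second run of 6 coding genes holds Il1f8, Il1f9, Il1f6, Il1f5, Il1f10 and Il1rn, and neighbours in it differed likewise: the log2 difference on day 7 over day 1 was -4.52 for Il1f9 and 1.17 for Il1rn. Il1a and Il1b are also next to each other, and on day 4 over day 1 Il1a was 2.09-fold higher and Il1b 7.44-fold lower. Il1bos was under the floor on every array.

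**Figure D4:**
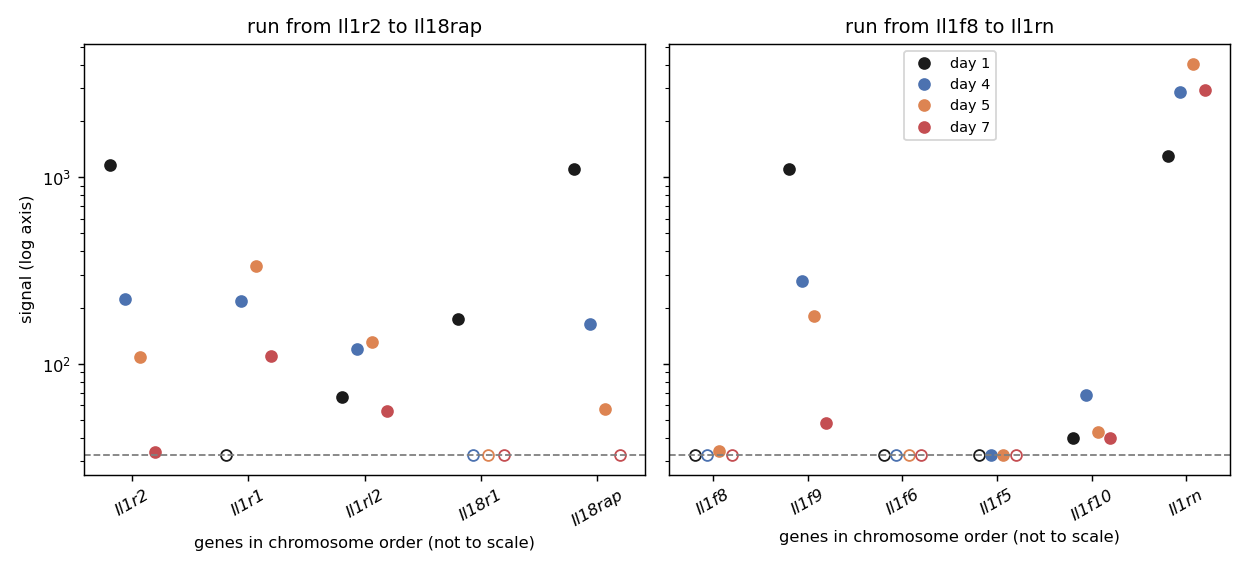
Points give the signal (log axis) of neighbouring IL-1 family genes in chromosome order, with 1 colour per day; open points at the dashed line are signals under the floor. Il1r1 lies next to Il1r2 but is under the floor on day 1, where Il1r2 had 1159, and in the other run Il1f9 is highest on day 1 and Il1rn on day 5.

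Several of these genes moved with markers of neutrophils, which are plentiful in marrow. Of 14 listed neutrophil genes 13 had a probe set, and on day 7 against day 1 all 13 were lower by 2-fold or more. Their summed signal was 127242, 75105, 41464 and 6307 on days 1, 4, 5 and 7, and Elane, Ctsg and Cxcr2 were under the floor on day 7. The median log2 difference of the neutrophil genes was -1.16 (day 4 over 1), -1.45 (day 5 over 4) and -2.58 (day 7 over 5). Il1b had -2.90, -1.91 and -0.996 over the same steps, so the sizes by step differed. The summed signal of 8 T and NK cell genes was 1346, 184, 120 and 98.8, with 7 of the 8 under the floor on day 7. Cd3e, Gzma and Ncr1 were under it on day 1 too, as was Prf1, the gene above it on day 7. Of the 8, 3 were lower by 2-fold or more on day 7 than on day 1. For 10 mast cell, basophil and eosinophil genes it was 17930, 2023, 1184 and 241, and 7 of the 10 were under the floor on day 7. The median log2 difference of these 10 genes was -2.48 (day 4 over 1), -0.24 (day 5 over 4) and 0 (day 7 over 5). Of the B cell genes 7 of 9, and of the dendritic cell genes 6 of 10, were also lower on day 7 than on day 1. The part of these cells in the lower signals of Il1b, Il1f9, Il1r2, Il18rap, Il18r1 and, outside this family, Il17ra and Il16 was not tested. Macrophage genes ran differently: the summed signal of 11 of them was 41628, 75441, 70645 and 71980, and that of 15 osteoclast genes was 21509, 36250, 55830 and 64798. Megakaryocyte and platelet genes had sums of 17615, 22306, 15166 and 8405. Of the 9, 8 passed 2-fold downward for day 5 over 4, for day 7 over 5 and for day 7 over 4. Of the 13 neutrophil genes, 9, 11 and 13 did so in the same order. The shares of all named genes that did so were 2.62%, 3.73% and 5.89%. For 6 erythroid genes the sums were 18763, 7944, 7266 and 6167, with 3 lower and 1, Tfrc, higher on day 4 than on day 1. Hba-a1 was under the floor on every array, and Alas2, Slc4a1 and Klf1 were under it on days 4, 5 and 7. The later erythroid sums thus come mainly from the 2 genes above it on every array. The part of these cells in the interleukin values was not tested.

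Genes that act downstream of IL-1 receptors were examined next. Of 15 listed genes of IL-1 processing and MyD88 signalling 14 had a probe set, all above the floor on every array, and on day 7 against day 1, 0 were higher and 4 were lower, where 8.33% of all named genes were higher and 10.7% lower. Those 4 were Irak3, an inhibitor of the pathway, at 3.75-fold, Nfkbiz at 3.67-fold, the RNA-degrading regulator Zc3h12a at 2.50-fold and the kinase Irak2 at 2.12-fold. Casp1, the protease that matures IL-1 beta and IL-18, had signals of 831, 961, 1153 and 1257, and Nlrp3, the sensor that activates it, had 241, 336, 217 and 294. Neither reached 2-fold.

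In the common gamma chain group, the cytokine gene Il7 was under the floor on day 1 and had signals of 157, 166 and 82.4 on days 4, 5 and 7. It was at least 4.85-fold higher on day 4 than on day 1, and 281 of the 18193 genes, Il7 among them, had a difference as high or higher. Its other probe set was under the floor on every array, and with a floor of 68.9 its log2 difference on day 7 over day 1 was 0.26 in place of 1.35. Il7r, the gene of the IL-7 receptor chain, peaked earlier, with 1569, 2383, 991 and 713. It was 2.40-fold lower on day 5 than on day 4 and 3.34-fold lower on day 7 than on day 4, and its other probe set gave log2 differences of -1.11 and -2.19 in the same comparisons. The summed signal of 9 B cell genes was 8060, 5002, 2728 and 2812, with 6 of them under the floor on day 7. Blnk alone had 2076, 2824, 2059 and 2564, so the sums of days 5 and 7 come mainly from it. For day 7 over day 1 the median log2 difference of the 9 was -3.60, with 7 of them past 2-fold downward. The summed signal of 13 stromal and osteoblast genes was 2110, 28531, 37616 and 25326. The part of these cells in the courses of Il7r and Il7 was not tested.

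Il15, whose product supports NK cells, had signals of 420, 217, 151 and 182 and was 2.30-fold lower on day 7 than on day 1. Il15ra, the chain that presents IL-15, had 137, 104, 119 and 55.1 and was 2.15-fold lower on day 7 than on day 5; its other probe set gave a log2 difference of -0.40. Il4ra, the shared chain of the IL-4 and IL-13 receptors, had 486, 1037, 1072 and 474. It was 2.13-fold higher on day 4 than on day 1 and 2.26-fold lower on day 7 than on day 5, and days 7 and 1 were within 1.03-fold of each other. A second probe set of Il4ra gave a log2 difference of -1.40 on day 7 over day 5 and, set against day 1, 0.14 on day 4 and -1.24 on day 7. The comparisons of Il4ra with day 1 thus depend on the probe set. Il13ra1, its partner in the IL-13 receptor, had 185, 223, 239 and 154 and stayed within 1.55-fold, but 3 further probe sets gave log2 differences of -0.14, -0.44 and -0.85 on day 4 over day 1, where the one used gave 0.27. Il13ra2, a decoy for IL-13, was above the floor on days 4 and 5 only, at 35.1 and 39.6. Il21r had 202, 371, 342 and 361, 1.84-fold higher on day 4 than on day 1. The cytokine genes Il2, Il9 and Il21 and the receptor genes Il2rb and Il9r were under the floor on every array, and Il4 and Il2ra were above it on day 1 only, at 55.4 and 63.9. The T cell cytokines Il3, Il5 and Il13 were under it throughout.

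In the IL-6 group, the signal transducer gene Il6st had signals of 527, 1608, 2157 and 1044. It was 3.05-fold higher on day 4 than on day 1 and 2.07-fold lower on day 7 than on day 5. A pair of further probe sets of Il6st, both above the floor on all arrays, gave log2 differences of 1.59 and 1.89 on day 4 over day 1 and of -1.55 and -1.34 on day 7 over day 5. Il6ra, the IL-6 binding chain, had 624, 555, 262 and 250, and was 2.12-fold lower on day 5 than on day 4. A second probe set of Il6ra differed by -0.47 on the log2 scale in that comparison and by -0.27 on day 7 over day 1, where the one used gave -1.32, so the size of this difference depends on the probe set.

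Chains that pair with gp130 but do not carry the interleukin name followed Il6st. Osmr, the oncostatin M receptor, had signals of 61.8, 620, 1077 and 519, and Lifr, the LIF receptor, had 285, 844, 1705 and 740. Both passed 2-fold upward on day 4 over day 1 and downward on day 7 over day 5, on the same arrays as the stromal genes, of which 11 of 13 were higher on day 4 and 7 of 13 lower on day 7 than on day 5. The part of stromal cells in the courses of Il6st and Il1r1 was not tested. Of all 14 listed partner genes without the name 12 had a probe set, and 2 were higher and 2 lower on day 4 than on day 1. Of all named genes 6.61% were higher and 5.69% lower in that comparison. On day 7 against day 1, 3 were higher (Osmr, Lif and Lifr) and 5 lower (Csf2rb, Csf2rb2, Clcf1, Sigirr and Osm), where 8.33% of all named genes were higher and 10.7% lower.

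Among the ligands of this group, Il6 had signals of 101, 84.3 and 128 on days 1, 4 and 5 and was under the floor on day 7, lower than on day 5 by at least 3.94-fold. Il12a, which encodes the p35 chain of IL-12, had 292 on day 1 and 97.0 on day 4 and was under the floor on days 5 and 7. Day 4 was 3.01-fold below day 1, and day 7 was lower than day 1 by at least 8.99-fold. Il12b, the gene of the other IL-12 chain, Il23a and Il31 were under the floor on every array, and Il11 was above it on day 5 only, at 40.5. Of the receptor genes, Il12rb1 was between 34.8 and 59.3 on days 4 to 7 and Il27ra was above the floor on day 4 only, at 52.0, while Il12rb2 and Il31ra were under it throughout.

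The IL-10 receptor genes differed from each other. Il10ra, the chain specific to IL-10, had signals of 573, 572, 187 and 126. It was equal on days 4 and 1 within 1.001-fold and 3.06-fold lower on day 5 than on day 4, day 5 being the earlier of the days with M-CSF and RANKL. Both other probe sets of Il10ra were under the floor on every array, and with probe sets averaged the log2 difference on day 5 over day 4 was -0.54. The summed signal of 10 dendritic cell genes was 16136, 12324, 3089 and 2465 on days 1, 4, 5 and 7, with 6 of the 10 lower on day 5 than on day 4; their part in the course of Il10ra was not tested. Il10rb, the chain shared with other cytokines, had 3509, 4246, 3047 and 3878 and stayed within 1.39-fold at each step. A weaker probe set of Il10rb had 178, 89.9, 56.8 and 34.4, a course that the one used does not show. Il10 itself, the gene of an anti-inflammatory cytokine, had 35.5, 74.8, 72.4 and 57.7. Its 2.10-fold difference on day 4 over day 1 starts just above the floor, and with a floor of 68.9 it was 0.12 on the log2 scale. The ligands Il20 and Il24 were under the floor on all arrays, as were the receptor genes Il20rb, Il22ra1 and Il22ra2, and Il20ra was above it on day 5 only, at 46.3.

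In the IL-17 family the receptor gene Il17ra, a chain shared by several IL-17 receptors, had signals of 1920, 919, 593 and 296. It was lower at every step and 6.49-fold lower on day 7 than on day 1, and its other probe set gave a log2 difference of -2.39. Il17rb had 132 and 38.6 on days 1 and 4 and was under the floor afterwards, so that day 7 was at least 4.08-fold below day 1. Il17re had 104, 123, 85.0 and 74.0 and was within 1.66-fold in every comparison. Il17rc and Il17rd did not exceed 41.7. The 4 ligands of the family among the members, Il17a, Il17b, Il17d and Il25, were under the floor on every array.

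Il16, which encodes a chemoattractant of cells that carry CD4, had signals of 1480, 681, 191 and 218. It was 2.17-fold lower on day 4 than on day 1 and 3.57-fold lower on day 5 than on day 4, with a log2 difference of 0.19 on day 7 over day 5. A second probe set of Il16 gave log2 differences of -1.22, -1.70 and 0.13 over the same steps. A further 2 probe sets of Il16 did not exceed 32.9, and with all averaged the first 2 differences were -0.58 and -0.88. Il4i1 was under the floor on every array on the probe set that carries its symbol alone.

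**Figure D5:**
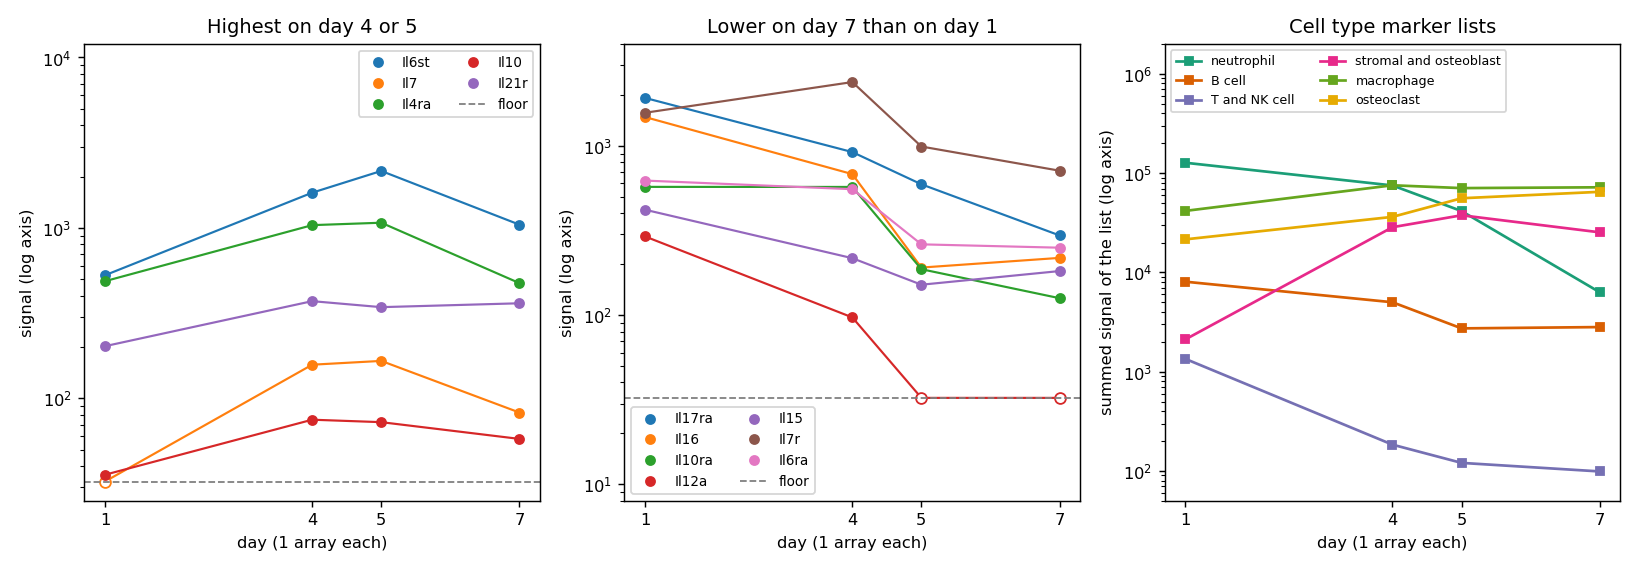
The left and middle panels plot the signal (log axis) of interleukin genes outside the IL-1 family against the day, with open points for signals under the floor of 32.4; the right panel plots the summed signal (log axis) of 6 cell type marker lists. Il6st, Il7 and Il4ra are highest on day 5 and Il10 and Il21r on day 4, while Il17ra is lower at every step and Il10ra and Il16 are much lower on day 5 than on day 4. The neutrophil sum is lowest on day 7 and the stromal sum highest on day 5.

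Genes that carry interleukin signals inside the cell were followed in the same way. Of 16 listed JAK, STAT and SOCS genes 15 had a probe set, and on day 7 against day 1 there were 6 lower and 1 higher, where 10.7% of all named genes were lower and 8.33% higher. Stat4, which transmits IL-12 signals, was at least 13.5-fold lower, Stat5b, a target of common gamma chain receptors, 4.59-fold, the IL-6 responsive Stat3 3.76-fold, Jak3 3.16-fold, Jak2 2.58-fold and Stat2 2.51-fold. Socs2, a feedback inhibitor, was the higher gene, with signals of 124, 560, 694 and 278. Socs3, which limits gp130 signalling, had 726, 941, 1407 and 614 and was 2.29-fold lower on day 7 than on day 5. The median log2 difference of the 15 genes was -0.30 (day 4 over 1), -0.34 (day 5 over 4) and -0.37 (day 7 over 5).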

How the data were processed

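Per the labels' protocols, biotin-labelled cRNA was prepared from 250 ng of total RNA. The authors deposited 1 linear intensity for each probe set and array; GCOS version 1.4 and MAS5 are named per the submitters' processing notes, with no scaling target in the sources used here. Detection calls were not used here, so the floor stands in for them.

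The 64 control probe sets were left out. Of the other 45037, the platform annotation gives 1 symbol to 34945, more than 1 to 932 and no symbol to 9160; only the first kind was named. The Entrez numbers of all 70 members were found in a RefSeq table of GRCm38.p6, which changed 0 symbols. For a gene with several probe sets, the one whose log2 signal, floor applied, had the highest mean was used. Titles gave the day of each array, and 5 comparisons were made (day 4 over 1, 5 over 4, 7 over 5, 7 over 4 and 7 over 1), with no test. The number of arrays limits the precision.

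Members, lists, markers and motifs were chosen with earlier results of these data known. Members that reached 2 times the floor on some array were given with full values, and all others are accounted for by name or count. Other settings tried were floors of 8.43 and 68.9 (the 25th and 60th percentiles), adding 16 with no floor, quantile normalization, median scaling on probe sets above the floor on all arrays, averaging a gene's probe sets, and dropping those built to match several transcripts. The counting was tested on simulated data. Software was numpy 2.4.6, pandas 2.3.3 and matplotlib 3.10.9 under Python 3.11.15.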

Additional observations from a re-analysis of the deposited data

How the results depend on the processing

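With 1 array per day, no difference has a replicate check, and signals near the floor of 32.4 limit what can be said of 28 members on every array. Of the 72 differences past 2-fold among the 31 genes with full values, 0 changed direction under any of the 7 alternatives. Another floor or the addition of 16 cannot reverse a difference on the same probe set, and a difference that became 0 was not counted as reversed. The count of 0 is therefore little evidence of stability. The number still past 2-fold was 72 with a floor of 8.43, 54 with a floor of 68.9, 63 with 16 added and no floor, 60 after quantile normalization, 63 after median scaling, 50 with a gene's probe sets averaged, and 70 without probe sets designed to match several transcripts; the 2 lost under the last setting were those of Il1rl2, whose remaining probe set was under the floor.

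The lower floor of 8.43 counted more weak genes: 13 higher and 14 lower on day 4 over day 1, 2 higher on day 5 over day 4, 1 higher and 17 lower on day 7 over day 5, 3 higher on day 7 over day 4, and 6 higher and 26 lower on day 7 over day 1. Among the 3 higher on day 7 over day 4 were Il17a, Il33 and Il4i1, all under the floor of 32.4 on every array. The number lower on day 7 over day 5, 11 as reported, was 6 with a floor of 68.9, 6 after quantile normalization, 7 after median scaling and 5 with the mean over probe sets. The mean over probe sets also gave 5 lower on day 5 over day 4. The number higher on day 7 over day 1, 3 as reported, was 1 with a floor of 68.9, 6 after quantile normalization and 1 with the mean over probe sets. On that comparison 15% of the called members were higher as reported, 31.6% after quantile normalization and 20% after median scaling. Quantile normalization moved the median log2 difference of all genes on day 7 over day 1 by 0.13 and median scaling by 0.10; median scaling moved that on day 7 over day 5 by 0.11. Relative to the median of all genes, the median of the members on day 7 over day 1 was -0.44 as reported, -0.18 after quantile normalization and -0.41 after median scaling. The cause of these shifts was not tested. No paired analysis was possible because each day has a single array.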
